A study of Canis lupus familiaris with 11 samples.

Results

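The EGF receptor system was followed at the RNA level through 3 receptor genes (EGFR, ERBB2, ERBB3) and 6 ligand genes (HBEGF, AREG, EREG, TGFA, BTC, EPGN). They were taken by gene symbol from a count table of 26178 genes, which held 9 of the 9, with EGFR, TGFA and AREG matched through the protein description because the table gives them no symbol of their own. Reads were present for 7 of the 9, and 6 passed the filter on low counts and were tested among 13560 genes. No member passed the test in any comparison. The clearest patterns were lower HBEGF and TGFA RNA in every compressed library than in every control library of the same genotype, and higher ERBB3 RNA in every knockout library than in every wild-type library of the same treatment. EGF itself, the founding ligand and not among the 9, was higher in the knockout.

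The cells were MDCKII, a dog kidney epithelial line that grows as a tight, polarised sheet, and the series asks how such an epithelium responds to sideways compression and what part lamin A has in it. LMNA encodes lamins A and C, filament proteins under the inner nuclear membrane. The groups were LMNA knockout (KO) cells after lateral compression and 2 h of recovery (3 libraries), KO cells left uncompressed (2), wild-type (WT) cells after the same compression and recovery (3) and uncompressed WT cells (3). All had grown for 3 to 4 d to confluence in medium with 10% serum, so every group was exposed to the growth factors of serum. The groups follow the sample titles, since the design text of the series describes Day 7 and reseeded cultures of wild-type cells. The sources used here do not give how the knockout was made, how many clones it holds or how force was applied. Loss of LMNA and differences between clones or cell lines therefore cannot be told apart. No sham handling or recovery is labelled for the controls, so compression, handling and recovery time cannot be told apart.

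In the family as known from human and mouse cells, ligands are made as membrane-anchored precursors and are cut free by ADAM proteases. A bound receptor pairs with another family member, the paired kinases phosphorylate each other, and the RAS-ERK and PI3K-AKT pathways are switched on. EGFR binds all of the ligands studied here, with HBEGF, EREG and BTC also binding ERBB4. ERBB2 has no known ligand of its own and serves as a partner, and ERBB3 binds neuregulins and signals through its partner because its own kinase is weak. In epithelia the system drives proliferation, migration and repair of wounds, and in sheets of MDCK cells ERK activity is known to pass from cell to cell through release of these ligands.

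Libraries held 10420214 to 17999623 counts. LMNA stood at 25.5 to 43.6 CPM (counts scaled to library depth with TMM factors) in compressed KO cells and 38.5 to 51.8 CPM in control KO cells, against 751 to 841 CPM in compressed WT cells and 679 to 1208 CPM in control WT cells, a log2 difference of -4.45 ± 0.20 (SE) averaged over treatments. Epithelial markers summed to 4533 to 7911 CPM per library, with the kidney cadherin CDH16 at 0 to 5.69 CPM. The leukocyte gene PTPRC, the T cell gene CD3E and the fibroblast genes DCN and LUM had 0 reads in all 11 libraries. KO compressed 2, WT compressed 3 and WT control 1 lay farthest from the other libraries of their groups over all genes. Their root mean square distances in log2 CPM were 0.866, 0.707 and 0.634. KO compressed 1 and KO compressed 3 lay nearly as far out as WT control 1, at 0.632 and 0.625. Whether replicates were separate cultures is not labelled, so the p-values rest on a spread that may be technical only. In such bulk RNA, fewer cells of a kind and less RNA per cell cannot be told apart, and whether the kit marks strand is not given, so reads of overlapping antisense genes would be counted in.

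Per length, ERBB3 had the highest RNA level of the receptors and EREG the highest of the 6 ligands. Levels between genes are compared in FPKM, the deposited fragments per kilobase of gene and per unit of library depth. ERBB3 (chromosome 10, 412921 to 423604, plus strand; all positions are the table's, on CanFam3.1) had a median of 30.9 FPKM over the 11 libraries, and ERBB2 (chromosome 9, 22757524 to 22785561, minus strand) had 15.5 FPKM. ERBB3 stood above ERBB2 in 11 of 11 libraries. The counts themselves were close, 18301 reads for ERBB3 and 19140 for ERBB2 in all, so this order rests on the authors' gene lengths of 3407 and 7713 bases. EGFR (chromosome 18, 5983668 to 6041628, plus strand) had a median of 4.41 FPKM. Shares of the summed FPKM of the 4 receptor genes, ERBB4 included, were 51.4% to 67.7% for ERBB3, 18.1% to 35.4% for ERBB2, 6.25% to 10.6% for EGFR and 1.74% to 7.40% for ERBB4. The order from ERBB3 down to ERBB4 was the same in 10 libraries, and in KO compressed 2 ERBB4 stood above EGFR.

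Among ligands, EREG (chromosome 13, 62873764 to 62880508, plus strand), epiregulin, had a median of 11.7 FPKM. HBEGF (chromosome 2, 35551228 to 35563354, minus strand), the heparin-binding ligand, had 4.31 FPKM, and TGFA (chromosome 10, 68915629 to 68966459, minus strand), transforming growth factor alpha, had 2.27 FPKM. Of neighbours in the order of levels, ERBB2 exceeded EREG in 8 of 11 libraries, EREG exceeded EGFR in 11 and HBEGF exceeded TGFA in 11. EGFR exceeded HBEGF in 6 of 11, and those levels did not separate. EPGN (chromosome 13, 62803654 to 62810265, plus strand), epigen, came last with a median of 0.241 FPKM.

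Amphiregulin and betacellulin RNA were not detected. AREG (chromosome 13, 62923746 to 62936829, plus strand) and BTC (chromosome 15, 64133094 to 64160884, plus strand) had 0 reads in all 11 libraries. A count of 0 in 155748390 allows a level of up to 0.0193 CPM, taking 3 reads as the limit and covering counting error only. AREG shares its stretch of chromosome 13 with EREG and EPGN, and the 3 genes lie within 133 kb. EREG ends 43.2 kb before AREG starts, with 0 other genes of the table between them, so a ligand with 10958 reads and a ligand with 0 reads are neighbours here. Whether the table's gene models for AREG and BTC cover the transcripts that dog cells make was not tested.

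**Figure D1:**
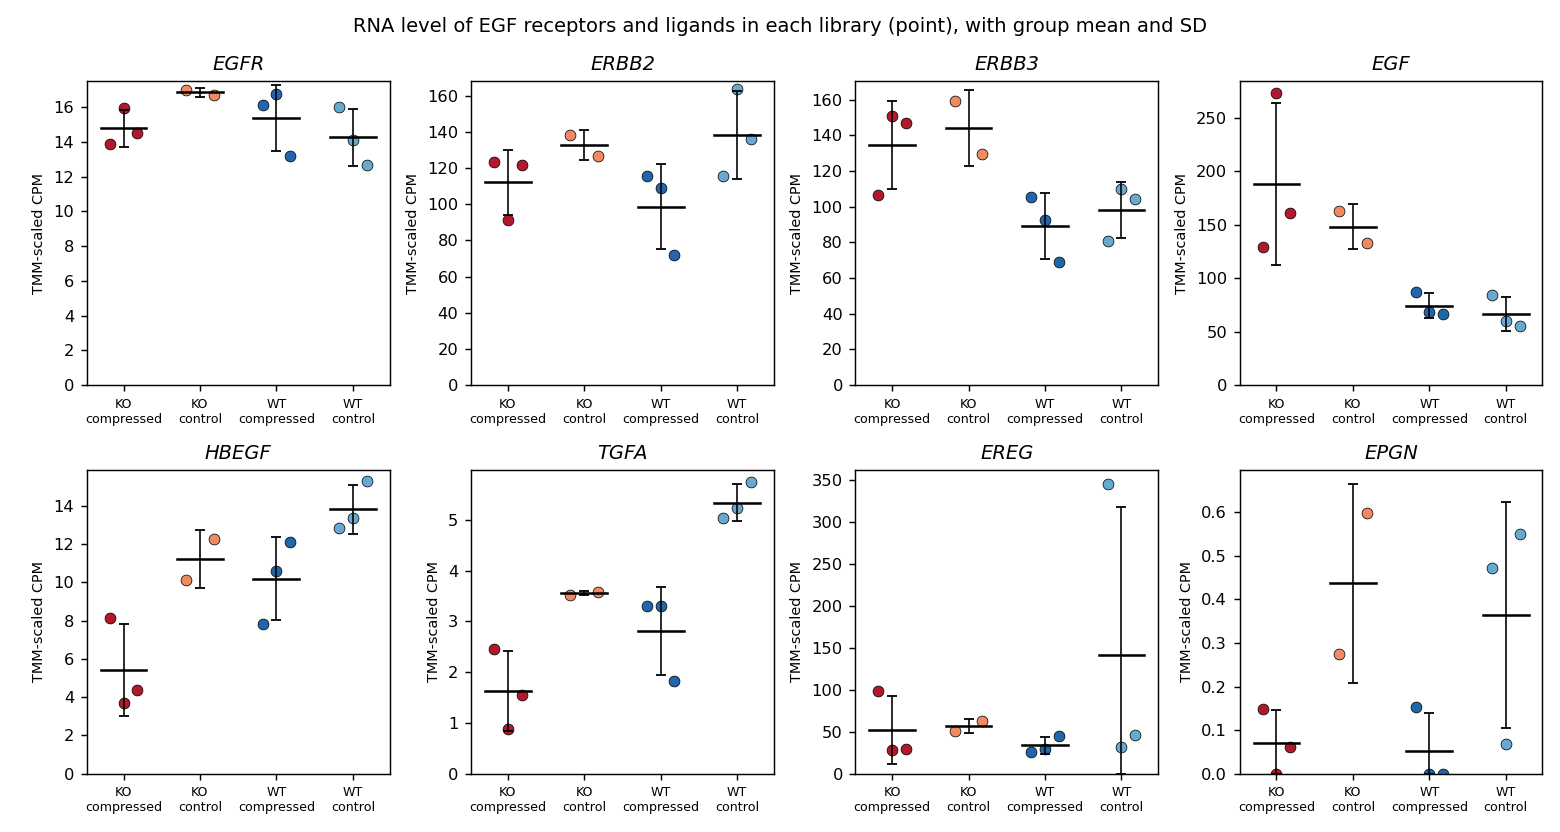
RNA level of the 7 EGF receptor and ligand genes with reads, and of EGF, in each library (points; TMM-scaled CPM, linear axis that starts at 0, own scale per gene), with the group mean (line) and SD (bar), for 3, 2, 3 and 3 libraries. The bar is cut at 0 for EREG in WT control cells and for EPGN in compressed KO and compressed WT cells. HBEGF and TGFA are lower in compressed than in control libraries of each genotype, ERBB3 is higher in KO than in WT libraries of the same treatment, EGF is higher in KO than in all WT libraries, and EREG has 1 library at 345 CPM.

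HBEGF and TGFA, both shed by ADAM17, had lower RNA after compression in both genotypes. TGFA stood at 2.46, 0.877 and 1.55 CPM in compressed KO cells and at 3.53 and 3.59 CPM in control KO cells. In compressed WT cells TGFA stood at 3.31, 3.30 and 1.82 CPM, and in control WT cells at 5.04, 5.23 and 5.74 CPM. The highest compressed library was below the lowest control in each genotype, on 10 to 43 reads per compressed library and 64 to 94 per control. The compressed to control log2 fold change of TGFA was -1.11 ± 0.43 (SE) in KO cells, -0.92 ± 0.38 in WT cells and -1.01 ± 0.29 averaged over the genotypes. In edgeR's quasi-likelihood fit, with p-values adjusted over all genes by Benjamini and Hochberg's method, these gave 0.773, 0.120 and 0.0517, so none passed 0.05.

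HBEGF stood at 8.14, 3.68 and 4.39 CPM in compressed KO cells and at 10.1 and 12.3 CPM in control KO cells. In compressed WT cells HBEGF stood at 7.84, 10.6 and 12.1 CPM, and in control WT cells at 12.8, 13.4 and 15.3 CPM. The groups again did not overlap, although in WT cells the gap between WT compressed 3 and WT control 1 was small. The log2 fold change of HBEGF was -1.05 ± 0.32 in KO cells, -0.44 ± 0.29 in WT cells and -0.75 ± 0.22 averaged, with edgeR adjusted p-values of 0.773, 0.303 and 0.0551. The averaged difference of both ligands passed with DESeq2 (adjusted p of 0.0101 for TGFA and 0.0140 for HBEGF) and in edgeR without the filter on low counts (0.0344 and 0.0339). It also passed without WT control 1 (0.0425 for TGFA, 0.0439 for HBEGF), without KO compressed 1 (0.0446, 0.0433) and without the 3 libraries that lay apart (0.0411, 0.0267). Without KO compressed 2 and WT compressed 3 alone it did not (0.109, 0.0986). In all it passed in 2 of 11 fits that left out 1 library, with adjusted p-values of up to 0.186 for TGFA and 0.201 for HBEGF, and in 3 of 12 other settings, with up to 0.128 and 0.133.

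Of the 6 members tested, HBEGF and TGFA were the 2 whose groups did not overlap, with compressed lower, in both genotypes, against 6.10% of all genes tested with that pattern. In WT cells alone these were also the 2 members without overlap, against 20.8% of genes. In KO cells there were 4, EGFR and ERBB2 with them, against 14.0% of genes. By the edgeR call 0 of 6 members passed in KO cells (0% of all genes), 0 of 6 in WT cells (6.25%) and 0 of 6 in the average over genotypes (5.58%). Members with an unadjusted p under 0.05 numbered 2 of 6 in KO cells (6.11% of all genes), 3 in WT cells (31.8%) and 3 in the average (31.4%). DESeq2 called 0 members in KO cells (0.00737% of all genes), 0 in WT cells (18.4%) and 2 in the average (17.0%). Limma on log2(FPKM + 1) called 0 members in each, with 0.00755%, 0% and 2.00% of all genes called. The averaged log2 fold change was negative in 6 of 6 members with a median of -0.56, beside -0.01 over all genes tested. A lower sum of fibroblast and smooth muscle markers moved with compression, at 23.9 to 27.0 CPM in compressed KO cells and 30.3 to 30.6 CPM in control KO cells, and at 25.2 to 26.9 CPM in compressed WT cells and 28.9 to 31.7 CPM in control WT cells. Of these 9 markers, MYH11 and PDGFRA carried nearly all reads, DCN and LUM were at 0 and COL1A1 had 5 reads in all. Its part in the result was not tested.

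EPGN RNA, too low to be tested, showed few reads in compressed cells. It had 2, 0 and 1 reads in compressed KO cells and 5 and 11 reads in control KO cells. It had 2, 0 and 0 reads in compressed WT cells and 6, 1 and 9 reads in control WT cells. Compressed and control libraries overlapped in WT cells. Pooled, this was 5 reads or 0.0648 CPM in 6 compressed libraries (exact 95% interval 0.0211 to 0.151 CPM) and 32 reads or 0.407 CPM in 5 control libraries (0.278 to 0.575 CPM). The intervals cover counting error only and not the spread between libraries.

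EREG had the largest SE of the 6 members in each comparison. It stood at 98.4, 28.2 and 29.6 CPM in compressed KO cells, at 51.1 and 62.8 CPM in control KO cells, at 26.1, 29.4 and 45.4 CPM in compressed WT cells and at 345, 32.1 and 46.6 CPM in control WT cells. WT control 1 alone held 4378 of its 10958 reads, and the groups overlapped in every comparison. The log2 fold change after compression was -2.07 ± 0.74 in WT cells (edgeR adjusted p 0.0853) and -0.23 without WT control 1 (0.744), and it passed with no filter on low counts (0.0156). In KO cells it was -0.13 ± 0.79 (0.977). Between KO and WT control cells it was -1.31 ± 0.82 (0.764), and 0.53 without WT control 1, so the sign of this difference rests on that library.

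No receptor passed after compression in the edgeR fit of 11 libraries. EGFR stood at 13.9, 16.0 and 14.5 CPM in compressed KO cells, at 17.0 and 16.7 CPM in control KO cells, at 16.2, 16.8 and 13.2 CPM in compressed WT cells and at 16.0, 14.1 and 12.7 CPM in control WT cells. Its log2 fold change after compression was -0.19 ± 0.21 in KO cells and 0.11 ± 0.19 in WT cells. Over all 11 libraries EGFR stayed between 12.7 and 17.0 CPM, the narrowest ratio of highest to lowest among the 6 members tested.

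ERBB2 stood at 124, 91.4 and 122 CPM in compressed KO cells and at 138 and 127 CPM in control KO cells. Compressed WT cells had 115.5, 109 and 71.9 CPM, against 115.4, 164 and 136 CPM in control WT cells. Compressed libraries lay below controls in KO cells, while in WT cells WT compressed 1 and WT control 1 met. Its log2 fold change was -0.24 ± 0.22 in KO cells, -0.49 ± 0.20 in WT cells (edgeR adjusted p 0.119, and 0.0338 without the 3 libraries that lay apart) and -0.36 ± 0.15 averaged (0.120). For ERBB3 the fold changes after compression were -0.10 ± 0.22 in KO cells and -0.14 ± 0.20 in WT cells.

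**Figure D2:**
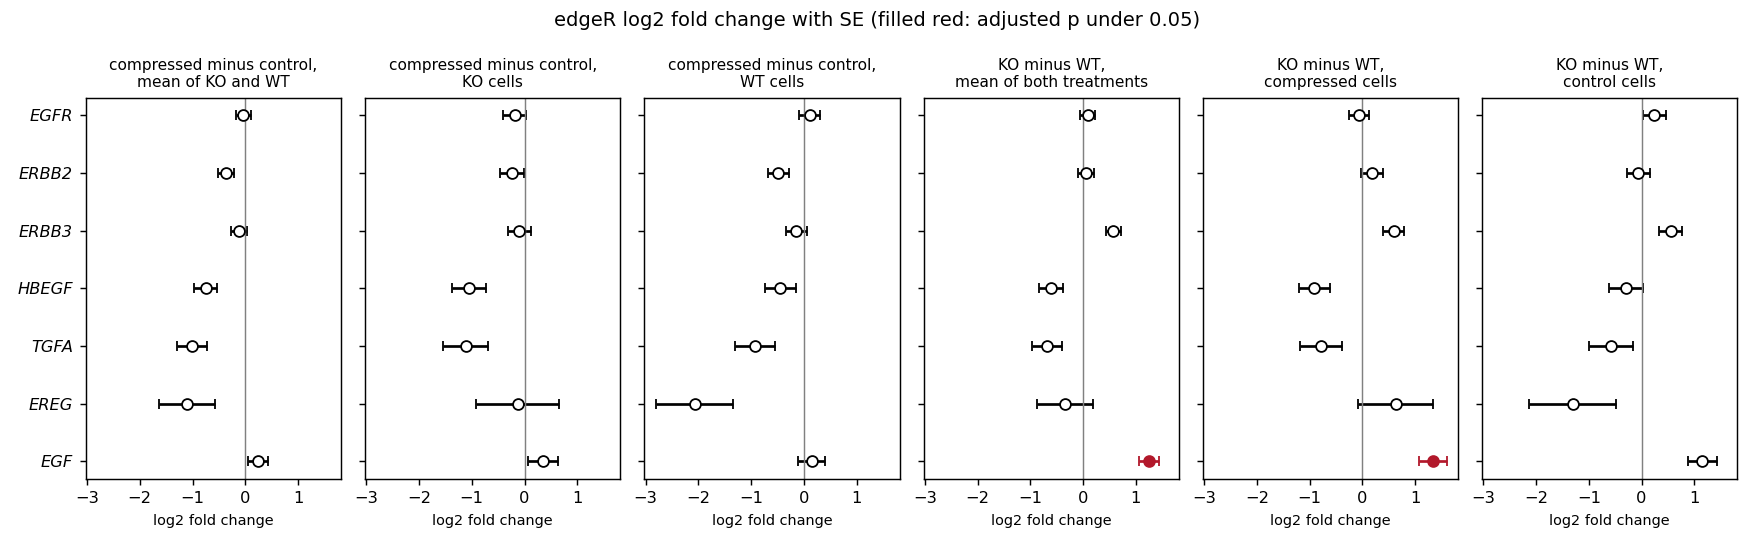
Log2 fold change with SE (edgeR, 11 libraries) of the 6 tested EGF receptor and ligand genes and EGF in 6 comparisons; filled red marks an adjusted p under 0.05 over all genes tested. HBEGF, TGFA, EREG, ERBB2 and ERBB3 lie left of 0 after compression, with SE bars that cross 0 for ERBB3 and, in KO cells, for EREG. For KO minus WT, ERBB3 lies right of 0 with and without compression, and EGF is filled in compressed cells and in the average over treatments.

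ERBB3 RNA was higher in KO than in WT cells with and without compression, without passing the test. It stood at 106, 151 and 147 CPM in compressed KO cells, against 105, 92.7 and 69.1 CPM in compressed WT cells. In control KO cells it stood at 159 and 129 CPM, against 80.6, 110 and 104 CPM in control WT cells. Every KO library exceeded every WT library of its treatment, with KO compressed 1 and WT compressed 1 nearly equal. Its log2 fold change, KO over WT, was 0.60 ± 0.20 in compressed cells, 0.56 ± 0.22 in control cells and 0.58 ± 0.15 averaged over treatments. The edgeR adjusted p-values were 0.235, 0.571 and 0.0776. The averaged difference passed with DESeq2 (0.0183), in edgeR without the low-count filter (0.0304) and without KO compressed 1 (0.0413). Without the 3 libraries that lay apart it was 0.39 (0.0594), and without KO compressed 2 and WT compressed 3 it was 0.46 (0.121). In all it passed in 1 of 11 fits that left out 1 library (adjusted p of up to 0.436) and in 2 of 12 other settings (up to 0.231).

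TGFA and HBEGF lay lower in KO than in WT cells, again short of the threshold. In the averaged comparison the log2 fold change was -0.68 ± 0.29 for TGFA (edgeR adjusted p 0.326) and -0.61 ± 0.22 for HBEGF (0.236). For HBEGF it was -0.91 ± 0.30 in compressed cells (0.227) and -0.30 ± 0.32 in control cells (0.898). Averaged KO to WT values of EGFR, ERBB2 and EREG were 0.09 ± 0.14, 0.06 ± 0.15 and -0.34 ± 0.53.

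By the edgeR call 0 of 6 members passed between KO and WT cells that were compressed (0.789% of all genes), 0 in control cells (0.339%) and 0 in the average (1.53%), with 2, 1 and 3 members at an unadjusted p under 0.05, as had 11.3%, 7.79% and 13.0% of all genes. DESeq2 called 1 member in the average, ERBB3 (3.95% of all genes), 0 in compressed cells (2.73%) and 0 in control cells (0.937%). Limma on log2(FPKM + 1) called 0 members in compressed cells, control cells and the average, where it called 0.445%, 0.121% and 1.14% of all genes. In the average, ERBB3 was the 1 member without overlap and higher in KO cells in both treatments, a pattern that 2.91% of genes tested had. In compressed cells alone it was also the 1 member higher without overlap (7.92% of genes). In control cells 2 members, EGFR and ERBB3, were higher without overlap (16.9% of genes) and 2, HBEGF and TGFA, were lower (15.0%).

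Whether the response to compression differed between KO and WT cells was tested with the interaction of genotype and compression. By edgeR 0 of 6 members passed (0% of all genes), 0 had an unadjusted p under 0.05 (4.79% of all genes), and the smallest adjusted p was 0.939. The largest interaction in size was that of EREG at 1.94 ± 1.08, which was 0.10 without WT control 1. For HBEGF the compression fold change was 0.60 log2 units more negative in KO cells (-0.60 ± 0.44), a value that was -1.02 without KO compressed 1, -0.40 without KO compressed 2, -0.21 without the 3 libraries that lay apart and -0.23 without KO compressed 2 and WT compressed 3. For TGFA the interaction was -0.20 ± 0.57. DESeq2 and limma on log2(FPKM + 1) also called 0 members (0% of all genes by each).

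EGF is the founding ligand of EGFR, and distal kidney tubules make it in quantity. It stood at 129, 273 and 161 CPM in compressed KO cells, against 87.3, 68.1 and 66.5 CPM in compressed WT cells. In control KO cells it stood at 163 and 133 CPM, against 84.4, 59.98 and 55.3 CPM in control WT cells. Every KO library was above every WT library of either treatment. EGF was higher in KO than in WT cells, with a log2 fold change of 1.25 ± 0.19 averaged over treatments (edgeR adjusted p 0.00294). This call held without each of the 11 libraries in turn, with adjusted p-values of 0.00108 to 0.0268, and without the 3 that lay apart (5.79e-05). The endothelial gene KDR had 0 reads in all 5 KO libraries and 2 to 35 reads in each WT library. The 6 endothelial markers summed to 64.6 to 91.8 CPM in compressed KO cells and 90.4 to 104 CPM in compressed WT cells, and to 63.7 to 82.6 CPM in control KO cells and 63.3 to 120 CPM in control WT cells. FLT1 carried 12947 of these reads, while the defining markers CDH5, PECAM1 and VWF had 7, 32 and 42 reads in all. Their part in the result was not tested.

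In compressed cells alone EGF was higher in KO cells by 1.34 ± 0.26 (edgeR adjusted p 0.0258). This call was lost without any of the 3 WT compressed libraries (0.0632, 0.134 and 0.165) or without KO compressed 3 (0.0598). It was also lost with limma on log2(FPKM + 1) (0.0804, and 0.121 unfiltered) and on log2(FPKM + 0.1) (0.0906), with the replicate block (0.0646), with the 2 groups fitted alone (0.0585) and without KO compressed 2 and WT compressed 3 (0.92, adjusted p 0.0847). The call held in 7 of 13 other settings, with 0.90 without the 3 libraries that lay apart (0.00722). In control cells it was 1.15 ± 0.28 and did not pass (0.154). It passed with DESeq2 (0.0217), in edgeR without the low-count filter (0.0145), without KO compressed 2 (0.0173), without the 3 libraries that lay apart (0.000646) and without KO compressed 2 and WT compressed 3 (0.0214). Compression itself went with 0.25 ± 0.19 averaged over genotypes (0.383). As a share of the summed FPKM of the 5 EGFR ligand genes with reads (EGF, EREG, HBEGF, TGFA and EPGN), EGF made up 40.7% to 82.6% in compressed KO cells, 46.8% to 56.8% in control KO cells, 37.7% to 53.3% in compressed WT cells and 12.3% to 36.0% in control WT cells. HBEGF made up 2.79% to 6.44% in compressed KO cells, 8.86% to 10.8% in control KO cells, 12% to 17.2% in compressed WT cells and 4.68% to 20.1% in control WT cells. Of these 5, EGF led in 7 libraries and EREG in the other 4, and in WT control 1 EREG alone made up 79.3%. The sum leaves out NRG1, a neuregulin that binds ERBB3 and ERBB4, which stood between 22.4 and 29.8 FPKM, above EGF in 3 of 5 KO libraries and in 6 of 6 WT libraries. These shares were not tested.

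**Figure D3:**
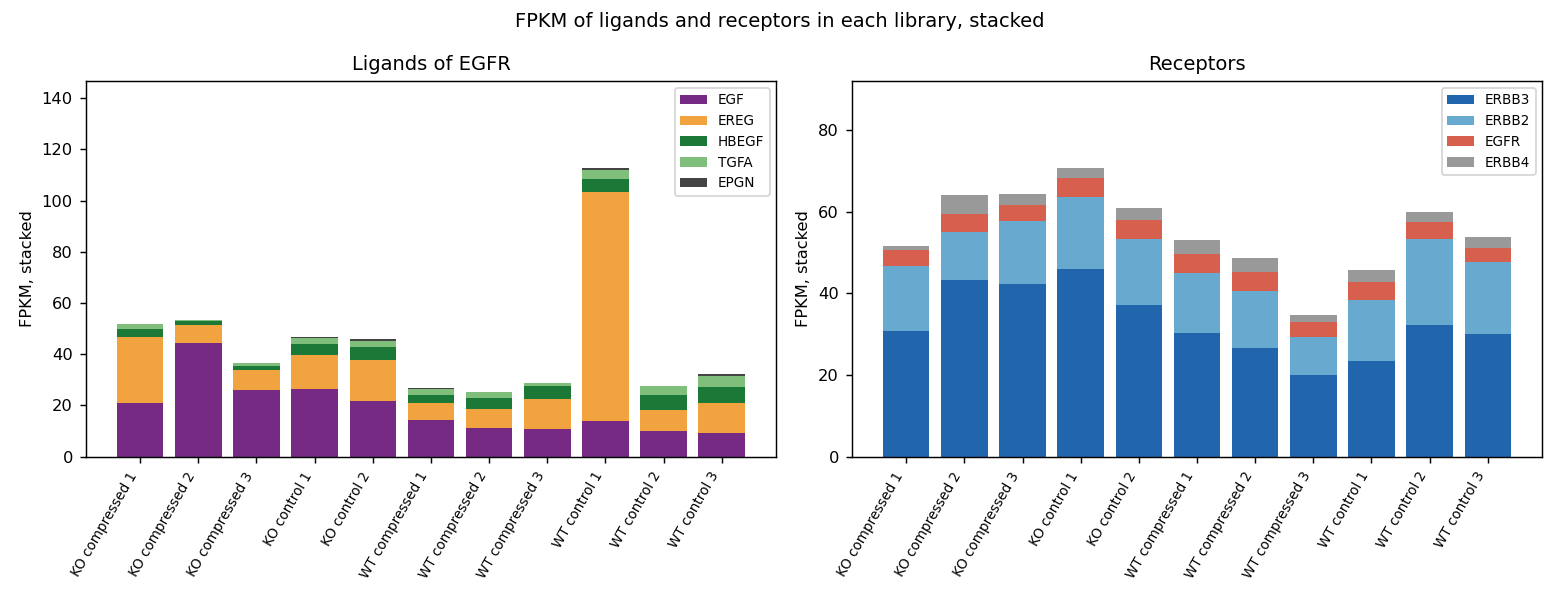
FPKM of the 5 EGFR ligand genes with reads (left, neuregulins left out) and of the 4 receptor genes (right), stacked for each of the 11 libraries. EGF is the largest part of the ligand bar in 4 of 5 KO libraries, WT control 1 stands apart through EREG (79.3% of its ligand FPKM), and ERBB3 is the largest receptor part in all 11 libraries.

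No other receptor or ligand gene of the family passed in the edgeR fit of 11 libraries. ERBB4, the receptor for neuregulins and for several EGFR ligands, stood at 3.51, 18.6 and 10.7 CPM in compressed KO cells, at 9.47 and 11.4 CPM in control KO cells, at 14.0, 14.2 and 7.57 CPM in compressed WT cells and at 11.1, 9.59 and 10.5 CPM in control WT cells. Its spread was widest among the compressed KO libraries, which held both its lowest and its highest value. NRG1 stood between 64.7 and 85.1 CPM in all 11 libraries, and its log2 fold changes were -0.18 ± 0.11 for compression and 0.01 ± 0.11 for the knockout, both averaged. NRG2 had 3 reads in all, and NRG3 and NRG4 had 0.

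As a description over the 11 libraries, TMM-scaled log2 CPM of HBEGF and TGFA had a Pearson r of 0.86, and 0.48 once group means were removed. HBEGF and EGF had an r of -0.80 (-0.83 within groups), and ERBB3 and EGF one of 0.76 (0.36 within groups). These points share libraries, depth and the group differences above. The genes with a pattern most like that of ERBB3 were RGS12 (r 0.952), IGSF3 (0.951) and FKBP15 (0.944). Those most like TGFA were DHX33 (0.965), FAM46B (0.963) and UBE2J2 (0.958), and those most like HBEGF were KRT80 (0.935), HUS1 (0.929) and RDH13 (0.922), all over 11 libraries.

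Of 13 genes listed as ERK feedback, 6 fell and 0 rose after compression in the average over genotypes, where 2.24% of all genes fell. This list, like the members and the lists below, was chosen with earlier results of these data known. Its share beside that of all genes is therefore a description and not an independent test. Not every gene of this list is known to be induced by ERK signals, as it also holds RASA1 and NF1. The median log2 fold change over the 13 was -0.62. PHLDA1, a growth factor-induced gene, changed by -1.26 ± 0.24, SPRY2, a Sprouty inhibitor of RAS-ERK signalling, by -0.80 ± 0.16, and the early response gene IER3 by -1.57 ± 0.36. Their edgeR adjusted p-values were 0.0399, 0.0399 and 0.0411. SPRY1, SPRY4 and SPRED3, also inhibitors of the cascade, fell by 0.97, 1.17 and 1.51 on the log2 scale. PHLDA1 averaged 22.8 ± 11.8 CPM in compressed KO cells (SD, n = 3) and 39.4 ± 3.44 CPM in control KO cells (n = 2), and 15.6 ± 3.18 CPM in compressed WT cells and 51.9 ± 1.74 CPM in control WT cells (n = 3 each).

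Of 13 ERK-responsive transcription factors tested, 5 fell and 0 rose, beside the same 2.24% of all genes, with a median of -0.69. FOS, a part of the AP-1 factor, changed by -1.05 ± 0.13, FOSL1, its relative FRA1, by -1.35 ± 0.22 and JUNB, another AP-1 part, by -1.61 ± 0.38, with edgeR adjusted p-values of 0.0127, 0.0399 and 0.0419. MYC and IER2 also fell, by 0.65 and 0.76. FOSL1 averaged 13.7 ± 6.43 CPM in compressed KO cells (SD, n = 3) and 35.6 ± 1.89 CPM in control KO cells (n = 2), and 21.4 ± 4.08 CPM in compressed WT cells and 54.1 ± 9.06 CPM in control WT cells (n = 3 each). In these 2 lists, 11 and 11 of 13 genes had negative values, beside a median of -0.01 over all genes.

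Of 10 other epithelial growth factor receptors, EPHA2, a receptor for ephrins, fell by 1.21 on the log2 scale (edgeR adjusted p 0.0373). It averaged 153 ± 66.0 CPM in compressed KO cells (SD, n = 3) and 308 ± 47.0 CPM in control KO cells (n = 2), and 190 ± 29.4 CPM in compressed WT cells and 508 ± 42.9 CPM in control WT cells (n = 3 each). DDR1, a collagen receptor, and FGFR4, a receptor for fibroblast growth factors, had values of -0.52 ± 0.18 and -0.70 ± 0.24 that did not pass. By edgeR, no gene passed in the average over genotypes among 7 of ligand shedding and 16 adaptors and RAS-ERK kinases (medians -0.16 and -0.08). The same held for 8 of the PI3K branch and 18 receptor inhibitors and turnover factors (medians 0.08 and 0.02). Nearest were RHBDF1, an iRhom that escorts ADAM17 to the cell surface (-0.56 ± 0.18, edgeR adjusted p 0.0682), the docking protein GAB1 (0.51 ± 0.16, 0.0655), the PI3K regulatory subunit PIK3R1 (0.54 ± 0.15, 0.0538) and LRIG3, of the LRIG family of receptor regulators (0.55 ± 0.16, 0.0517).

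These calls lay close to the threshold and depended on the processing and on which libraries were left out. Of 12 other settings, FOS passed in 11, EPHA2, FOSL1 and PHLDA1 in 9, SPRY1 and SPRY2 in 8 and the others in 7. With the replicate block 0 of all genes passed, so each of these calls was lost. Each of the 12 averaged calls was lost without WT control 3, WT compressed 1, KO control 1 or KO control 2. All but FOS were lost without WT compressed 3, and all but FOS and EPHA2 without WT control 2. SPRED3 and SPRY4 were lost also without WT compressed 2, and these together with SPRY1, MYC and IER2 without KO compressed 2, and IER2 without KO compressed 1. Adjusted p-values then reached 0.188. Without the 3 libraries that lay apart 8 feedback genes and 6 transcription factors fell. Without KO compressed 2 and WT compressed 3 alone 1 and 2 did, while EPHA2 fell in both. Lists with 0 edgeR calls gained some. DESeq2 (17.0% of all genes) called 0 higher and 1 lower in ligand shedding and 1 and 1 among adaptors and kinases. In the PI3K branch it called 1 and 2, and among inhibitors and turnover factors 1 and 3. Without the 3 libraries these counts were 1 and 1, 1 and 3, 0 and 1, and 3 and 3, beside 2471 of all genes. With single libraries left out, the log2 fold change ran for FOS between -1.13 and -0.98 and for EPHA2 between -1.42 and -1.10. For PHLDA1 it ran between -1.39 and -1.07. IER3 and SPRED3 moved more, between -1.75 and -1.25 and between -1.78 and -1.26. In the other settings IER3 reached -0.93 and SPRED3 -0.89.

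**Figure D4:**
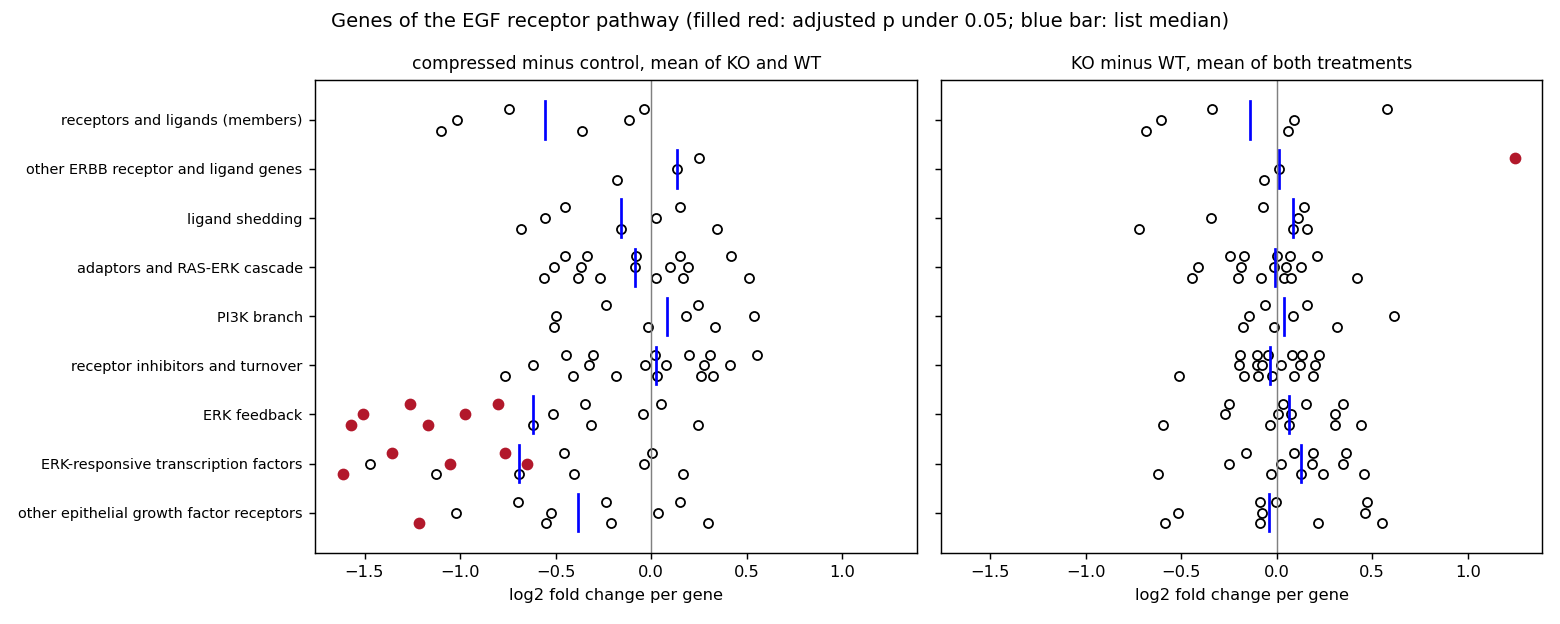
Log2 fold change of each tested gene (circle) in the EGF receptor and ligand list and 8 pathway lists, for compression averaged over genotypes (left) and the knockout averaged over treatments (right); filled red marks an edgeR adjusted p under 0.05 over all genes and the blue bar the list median. On the left the filled circles are 6 ERK feedback genes, 5 ERK-responsive transcription factors and EPHA2, and on the right EGF.

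In WT cells alone the same lists gave 12 calls, 9 lower and 3 higher, where 2.40% of all genes fell and 3.85% rose. PHLDA1, IER3, SPRY2 and SPRED3 fell among 13 feedback genes, and FOS and FOSL1 among 13 transcription factors. EPHA2 and FGFR4 fell among 10 other receptors, and RHBDF1 among 7 genes of ligand shedding. RHBDF1 (edgeR adjusted p 0.0428) and FGFR4 (-1.24 ± 0.33, 0.0472) had not passed in the average. GAB1, PIK3R1 and LRIG3 rose, by 0.88 ± 0.22, 0.77 ± 0.21 and 0.82 ± 0.21, with edgeR adjusted p-values of 0.0430, 0.0471 and 0.0435. They were 1 of 16 adaptors and RAS-ERK kinases, 1 of 8 of the PI3K branch and 1 of 18 receptor inhibitors and turnover factors. Each of the 12 calls was lost without any of WT control 2, WT control 3, the 3 WT compressed libraries and the 2 KO control libraries. IER3, SPRED3, FGFR4 and PIK3R1 were lost also without WT control 1, and PIK3R1 without KO compressed 3, with adjusted p-values of up to 0.202. Limma on log2(FPKM + 1) and the replicate block each called 0 of all genes here, so all 12 calls were lost with either. In KO cells alone 0 genes of these lists passed by edgeR, as for all genes, of which 828 (6.11%) had an unadjusted p under 0.05, and the medians of feedback genes and transcription factors were -0.65 and -0.62.

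Between KO and WT cells, EGF was the 1 listed gene to pass in the average over treatments, where 1.53% of all genes passed. Tested were 13 feedback genes, 13 transcription factors, 7 genes of ligand shedding and 16 adaptors and RAS-ERK kinases. The other lists had 8 genes of the PI3K branch, 18 receptor inhibitors and turnover factors, 10 other growth factor receptors and 3 other ERBB receptor and ligand genes. The medians were 0.06 for ERK feedback genes, 0.13 for ERK-responsive transcription factors, 0.08 for ligand shedding, -0.01 for adaptors and RAS-ERK kinases, 0.04 for the PI3K branch, -0.04 for receptor inhibitors and turnover and -0.04 for other growth factor receptors, beside -0.005 over all genes tested. PIK3R1 came nearest at 0.61 ± 0.15 (edgeR adjusted p 0.0677). FOSL1 and EPHA2, both lower after compression, had KO to WT values of -0.62 ± 0.23 and -0.52 ± 0.18 that did not pass (0.239 and 0.214).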

How the data were processed

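RNA was measured in 11 libraries. In the table that the authors deposited each gene has whole-number read counts and FPKM values. Per the submitters' processing notes, CASAVA, FastQC, HISAT2 2.0.5 and CanFam3.1 were used, while the sources used here do not give the gene counter or annotation. Counts went into edgeR 4.0.16 under R 4.3.3 (filterByExpr, TMM, a single quasi-likelihood fit of 4 groups with 7 residual degrees of freedom, two-sided, Benjamini-Hochberg over 13560 genes, threshold 0.05). The procedure was checked on simulated data for the sign and size of planted changes. Its power to call differences of the size seen here is not reported. Alternatives used DESeq2 1.42.0 and limma 3.58.1 on log2(FPKM + 1) and log2(FPKM + 0.1). Replicates differed beyond sampling noise (chi-square per gene at least 6.09). Members and lists were chosen with earlier results of these data known. Named are all members, LMNA, up to 3 genes of smallest p per list and comparison described, and the 3 genes most like ERBB3, TGFA and HBEGF. SPRY1, SPRY4, SPRED3, MYC and IER2 were added after their values were seen. Of 128 entries in the other lists 126 were found, and SOS1 and SOS2 are not analysed here.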

Additional observations from a re-analysis of the deposited data

How the results depend on the processing

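The count of members called, 0 in each of the 7 comparisons, stayed at 0 with RLE factors, library size alone, a stricter filter, a robust fit, limma on either FPKM scale and a replicate block. In the average over genotypes it became 2 (HBEGF and TGFA) with DESeq2, without the low-count filter and without the 3 libraries that lay apart, and ran from 0 to 2 when single libraries were left out. In the average over treatments it became 1 (ERBB3) with DESeq2 and without the filter, and ran from 0 to 1 with single libraries left out. For compression in WT cells it became 1 without the filter (EREG) and 1 without the 3 libraries (ERBB2). Fits of 2 groups alone were not run for the averages and the interaction. Leaving out 3 libraries (KO compressed 2, WT compressed 3 and WT control 1) or the first 2 of these was chosen after seeing the data. The number of genes called varied more. With single libraries left out it ran between 0 and 2106 for averaged compression, 0 and 3066 for WT compression, 6 and 106 for KO against WT in control cells, 39 and 349 in compressed cells, 86 and 331 for the averaged knockout and 0 and 1 for the interaction, and it was 0 each time for KO compression. For averaged compression it was 756, against 2305 with DESeq2, 1619 without the filter, 265 with limma on log2(FPKM + 1), 9 on log2(FPKM + 0.1), 8 on log2(FPKM + 1) unfiltered, 2471 without the 3 libraries and 12 without 2. For WT compression it was 848, against 2494, 1754, 0, 1, 0, 3497 and 945 in the same order, and 2069 with WT libraries alone.

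For KO against WT it was 46 in control cells, 107 in compressed cells and 207 in the average, against 127, 370 and 535 with DESeq2, 90, 201 and 287 without the filter, 16, 59 and 151 with limma on log2(FPKM + 1), 8, 50 and 137 on log2(FPKM + 0.1), 21, 57 and 147 unfiltered and 802, 723 and 932 without the 3 libraries. Control cells had 111 without 2 libraries, and compressed cells had 64 when fitted alone. For KO compression it was 0, against 1 with DESeq2, 1 and 2 with limma on log2(FPKM + 1) with and without a filter, and 13 without the 3 libraries. For the interaction it was 0, against 1 with unfiltered limma and 362 without the 3 libraries.

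Some log2 fold changes turned sign. Without the 3 libraries these were EGFR 0.026 and ERBB4 -0.023 for averaged compression, ERBB2 -0.024 and EREG 0.87 for the averaged knockout, EREG 0.16 and EGF -0.029 for KO compression, EREG 0.53 for KO against WT control cells, and ERBB3 -0.081 and EGF -0.46 for the interaction. Without 2 libraries they were ERBB3 0.016 for WT compression, EREG 0.20 and EGF -0.013 for KO compression, ERBB3 -0.19 and EGF -0.24 for the interaction, and ERBB4 -0.045 for averaged compression. ERBB4 was also -0.037 with limma on log2(FPKM + 0.1). The causes were not tested.

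With single libraries left out, values crossed 0 for EGFR between -0.15 and 0.0087 (KO against WT, compressed) and between -0.077 and 0.010 (averaged compression), for ERBB2 between -0.18 and 0.076 (KO against WT, control), -0.000725 and 0.33 (compressed) and -0.031 and 0.13 (averaged knockout), and for ERBB3 between -0.24 and 0.057 (KO compression), -0.28 and 0.015 (WT compression) and -0.11 and 0.20 (interaction). They did so for the TGFA interaction between -0.61 and 0.083, for EREG between -0.98 and 0.17 (KO compression), -1.78 and 0.53 (KO against WT, control), -0.22 and 0.93 (compressed) and -0.76 and 0.58 (averaged knockout), for EGF between -0.029 and 0.55 (KO compression) and -0.18 and 0.40 (interaction), and for ERBB4 between -0.17 and 0.34 (averaged compression).

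Deviations from the group means had r between -0.35 and 0.20 over 15 pairs of same-numbered libraries of different groups. For differently numbered libraries r lay between -0.25 and 0.37. Deviations cancel within groups this small, so these values cannot show whether the numbers pair the samples. With the replicate block 0 members passed in each of the 7 comparisons, and genes called were 0 for averaged, KO and WT compression and the interaction, 15 for KO against WT in control cells, 53 in compressed cells and 117 in the average. Depth limits the low ligands most: TGFA rested on 10 to 94 reads per library and EPGN on 0 to 11.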
